A study of Mus musculus with 6 samples.

Results

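The proliferin genes Prl2c2, Prl2c3, Prl2c4 and Prl2c5 of the prolactin family were described across 6 RNA-seq libraries from C2C12, a mouse myoblast cell line whose cells leave the cycle and fuse into myotubes when serum is lowered. Members were found by matching the NCBI gene numbers of the deposited table to symbols: 3 of the 4 listed genes had rows, and these were 3 of 17558 genes and 10 of 57920 transcript rows. Prl2c4 had no row of its own, and the RefSeq gene table lists that symbol as an older name of Prl2c3. The genes were chosen by their estimated counts in these same libraries, of which an earlier look had found Prl2c3 high in the group labelled shPkm2. Their levels and fold changes between groups are therefore a description, with no p-value.

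The libraries form 3 groups of 2, all from C2C12 cells 48 h after the change to differentiation medium with 2% horse serum and an insulin, transferrin and selenium supplement. The control group, shScr, carried a scrambled short hairpin RNA and is labelled wild type. The groups shPkm1 and shPkm2 stably carried a hairpin against the Pkm1 or the Pkm2 splice isoform of Pkm, the pyruvate kinase gene of muscle and growing cells. The labels do not say whether the libraries of a group came from separate cultures or how many clones a line held, so the p-values below measure the spread between these libraries, which may be technical.

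Proliferins are secreted glycoproteins related to prolactin and growth hormone. In the mouse they are best known from trophoblast giant cells of the placenta, where they act on blood vessel growth, and from fibroblasts stimulated with serum, from which the older name mitogen-regulated protein comes. They carry mannose 6-phosphate and bind the mannose 6-phosphate receptor Igf2r. The proliferin promoter is a classic model of a composite element at which AP-1 factors and the glucocorticoid receptor meet, and proliferin has been described as an inhibitor of myogenic differentiation.

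All 3 genes with rows lie in 1 cluster of 401.115 kb on chromosome 13 of the mouse build GRCm38.p6. Prl2c3 (NCBI gene 18812) lies at chr13:12790816-12800093 on the minus strand, Prl2c2 (18811) at chr13:12996120-13005393 on the minus strand and Prl2c5 (107849) at chr13:13182703-13191930 on the plus strand. The copies are nearly identical, which bears on how reads could be divided among them. The coding sequences of Prl2c3 and Prl2c2, both 675 bases long, were identical at 672 positions (99.6%). Their 3 differences, with the Prl2c3 base first and positions counted from 1 at the A of the start codon, were C14T in exon 1, A200C in exon 2 and G319T in exon 4. Prl2c5, with a coding sequence of 669 bases, matched Prl2c3 at 96.9% and Prl2c2 at 97.0% of aligned positions. The stretch from coding position 287 to 376, across exons 3 and 4 of 5, is shown because no other 90 bases compared differ at more positions. It holds 8 of the 18 differing positions among the 498 coding bases compared, so it is not typical of the rest. Among them are 1 of the 3 positions that separate Prl2c3 from Prl2c2 and several that set Prl2c5 apart. Capitals mark the 8 positions at which the 3 copies are not all alike, read from the GENCODE M21 transcripts.
Prl2c3: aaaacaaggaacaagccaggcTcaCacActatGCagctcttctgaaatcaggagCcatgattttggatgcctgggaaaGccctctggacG
Prl2c2: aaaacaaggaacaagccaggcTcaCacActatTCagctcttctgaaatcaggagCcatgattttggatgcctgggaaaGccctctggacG
Prl2c5: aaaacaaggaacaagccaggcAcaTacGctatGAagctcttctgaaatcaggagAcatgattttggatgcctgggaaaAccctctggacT

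Of all 100-base windows along the Prl2c3 transcript, 62.3% occurred letter for letter in Prl2c2 and 0% in Prl2c5. Of those along Prl2c5, 2.82% occurred in another copy. Within 150 bases the shares were 49.9% for Prl2c3, 50.9% for Prl2c2 and 0% for Prl2c5. Read length is not given in the sources used here. A fragment from much of Prl2c3 or Prl2c2 thus does not name its gene, whereas most 100-base fragments of Prl2c5 do. The split between Prl2c3 and Prl2c2 is for this reason uncertain throughout, and the sum over the family is the firmer value.

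The 250 bases before the start site are shown for the copies that RefSeq's promoter table (GRCm38.p6) holds, since the promoter of this family is where AP-1 acts. Capitals mark matches to TGANTCA, the core AP-1 sequence, searched on both strands, and to TATAA, the core of a TATA box, searched only on the strand of the gene. The Prl2c3 window is chr13:12800080-12800329, minus strand, and the Prl2c5 window is chr13:13182466-13182715, plus strand. Both are written 5′ to 3′ in the direction of the gene. The start site of the promoter table lies a few bases inside the gene extents given above, so each window overlaps the outer edge of its gene.
Prl2c3: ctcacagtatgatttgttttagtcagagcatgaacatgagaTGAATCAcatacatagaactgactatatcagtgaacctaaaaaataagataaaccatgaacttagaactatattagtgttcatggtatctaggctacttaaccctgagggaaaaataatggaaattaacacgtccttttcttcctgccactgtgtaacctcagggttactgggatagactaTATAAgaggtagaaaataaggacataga
Prl2c5: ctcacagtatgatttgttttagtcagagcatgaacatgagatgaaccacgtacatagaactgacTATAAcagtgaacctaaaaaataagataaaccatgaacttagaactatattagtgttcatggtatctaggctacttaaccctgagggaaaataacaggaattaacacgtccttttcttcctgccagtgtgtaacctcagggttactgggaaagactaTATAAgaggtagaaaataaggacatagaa

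The windows were identical at 241 of 249 aligned positions (96.8%). Prl2c3 held 1 match to TGANTCA, beginning 209 bases before the start, and Prl2c5 held none. The motif occurs in 6.75% of the 32851 promoter windows of this length. TATAA began 28 bases before the start in Prl2c3 and 29 and 186 bases before it in Prl2c5, and is found in 16.0% of windows. The distances are counted from the window ends. The Prl2c5 window includes its GENCODE start base, 13182715, whereas the Prl2c3 window stops before its own, 12800079. CANNTG, the E-box core bound by myogenic factors such as MyoD, was searched on both strands and occurred in neither window, against 66.2% of all windows. A match is a run of letters and not a measured binding site, and a missing match says only that the letters are not in this window.

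Library totals lay between 18216896 and 19796036 estimated counts. The transcript of Pkm1 held 15844 and 16970 estimated counts in shScr, 5854 and 5856 in shPkm1 and 6635 and 6909 in shPkm2. The transcript of Pkm2 held 31147 and 43712 in shScr, 30825 and 37021 in shPkm1 and 70489 and 71460 in shPkm2, so the targeted isoform was not lower in the libraries labelled shPkm2. Directions given for shPkm2 below refer to libraries with that label. All 8 muscle markers were found in every group, and their summed level in TPM (transcript abundance per length, scaled to a fixed library sum) was 13562 to 18997 in shScr, 7693 to 7948 in shPkm1 and 975 to 1043 in shPkm2. Of all 12643 genes tested, 63.1% passed edgeR's quasi-likelihood test at an adjusted p under 0.05 for shPkm1 against shScr, 68.0% for shPkm2 against shScr and 53.0% for shPkm2 against shPkm1. The tests used TMM scaling, and of the genes called, 50.3%, 49.8% and 48.4% were higher. With library totals as the only scaling these shares were 65.8%, 69.3% and 61.3%, and the median of all genes moved to 0.19, 0.33 and 0.14 on the log2 scale. With limma on log2(TPM + 1) the shares were 78.1%, 75.7% and 53.8% and the medians 0.31, 0.36 and 0.06.

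Proliferin RNA was near the limit of detection in shScr and shPkm1 and was a moderately abundant transcript in shPkm2. The summed family held 2 and 10 estimated counts in the shScr libraries, 4 and 9.99 in shPkm1 and 298 and 350 in shPkm2. Both libraries labelled shPkm2 stood above all 4 others by more than the spread within any group, and the shScr and shPkm1 ranges overlapped. This is the pattern for which the genes were picked, so nothing is read from it against the shares of genes called above. Scaled to transcript length, the family was at 0.65 ± 0.622 TPM in shScr, 0.85 ± 0.438 in shPkm1 and 37.6 ± 3.16 in shPkm2 (mean ± SD, n = 2 libraries each). In the shPkm2 libraries 78.1% and 80.8% of genes had a lower TPM than the family sum. Its rank from the top among genes was 3841 and 3365 there, against 12417 and 11003 in shScr and 11989 and 11271 in shPkm1. In bulk RNA, more cells that express a gene and more RNA per cell cannot be told apart.

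The fitted log2 fold change of the family sum was 5.40 (SE 0.350) for shPkm2 against shScr and 5.38 (SE 0.338) for shPkm2 against shPkm1. These contrasts share the shPkm2 libraries. As a ratio of scaled counts the first difference was 42.8-fold, with a 95% counting interval of 24.4 to 83.3, and the second was 42.3-fold, with an interval of 25.0 to 77.8. Intervals cover counting error only. For shPkm1 against shScr the log2 fold change was 0.02 (SE 0.645) and the ratio 1.01, with an interval of 0.435 to 2.40, so a difference of about this width in either direction was not detectable at this depth. Single low libraries moved these sizes by more than 1.5 times. Without shScr replicate 2, which held 10 of the 12 shScr counts, the log2 value of shPkm2 against shScr was 6.85, and without replicate 1 it was 4.75. Against shPkm1 it was 6.13 without shPkm1 replicate 2. For shPkm1 against shScr the value ran from -0.72 without shPkm1 replicate 2 to 1.47 without shScr replicate 2, so its direction rests on single libraries.

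**Figure D1:**
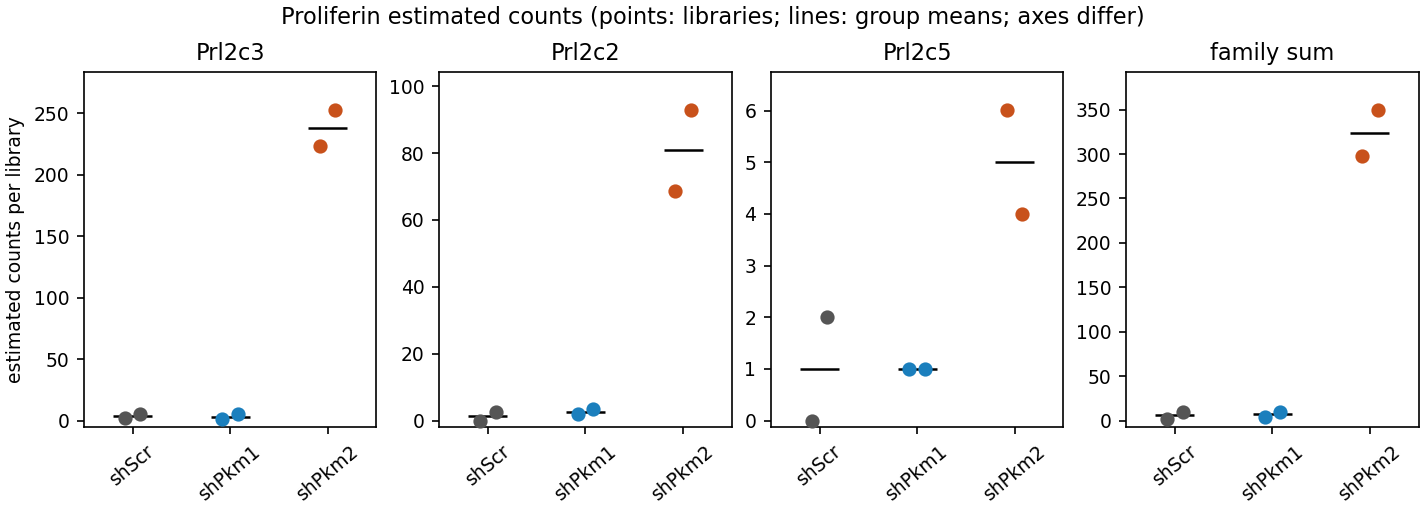
Estimated counts per library (vertical axes, linear, with a different range in each panel) of Prl2c3, Prl2c2, Prl2c5 and the family sum. Points are libraries and lines are group means of 2 libraries, and in each panel both shPkm2 points lie above the shScr and shPkm1 points, at 298 and 350 for the sum.

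Prl2c3 carried most of the signal. It held 2 and 5.46 estimated counts in shScr, 1 and 5.6 in shPkm1 and 223.45 and 253 in shPkm2, which is 27.1 ± 1.48 TPM in shPkm2 (SD, n = 2). Only the shPkm2 libraries exceeded 6 counts. Through these libraries alone Prl2c3 passed the filter on low counts, so its rank among the tested genes is not read. Its log2 fold change was 5.71 (SE 0.381) against shScr and 5.91 (SE 0.378) against shPkm1. The ratios were 53.9-fold (95% counting interval 26.0 to 135) and 62.1-fold (29.9 to 155). Without shPkm1 replicate 2 the log2 value against shPkm1 was 7.56 and without replicate 1 it was 5.18. Without shScr replicate 2 the value against shScr was 6.41. For shPkm1 against shScr, each with 7 rounded counts, the ratio was 0.868 (0.260 to 2.90), and the log2 value moved from -0.20 to -1.84 without shPkm1 replicate 2.

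Prl2c2, which has also been called simply proliferin, held 0 and 2.54 estimated counts in shScr, 2 and 3.39 in shPkm1 and 68.53 and 93 in shPkm2. It was at 9.94 ± 1.85 TPM in shPkm2 (SD, n = 2), below Prl2c3 in both libraries. The ratio of scaled counts was 42.8-fold against shScr, with an interval of 14.4 to 210, and 29.6-fold against shPkm1, with an interval of 12.4 to 92.4. The fitted log2 fold changes were 5.33 (SE 0.558) and 4.82 (SE 0.504). The value against shScr depended on 1 library: it was 9.22 without shScr replicate 2, when no count was left in shScr, and 4.45 without replicate 1. No fold is read for shPkm1 against shScr, since no rounded count of either group was above the floor of 3 counts, the upper limit that a count of 0 allows.

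Prl2c5 stayed close to that floor in every group. It held 0 and 2 estimated counts in shScr, 1 and 1 in shPkm1 and 6.02 and 4 in shPkm2, and it was too low to enter the test. The ratio was 3.97 against shScr, with a counting interval of 0.845 to 37.2, and 4.57 against shPkm1, with an interval of 0.974 to 42.9. Both intervals include 1, so a difference for Prl2c5 was not detectable at this depth. In TPM it was at 0.53 ± 0.170 in shPkm2 (SD, n = 2).

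In both shPkm2 libraries Prl2c3 led, followed by Prl2c2 and Prl2c5. Prl2c3 took 74.8% (95% exact binomial interval 69.5 to 79.7) and 72.3% (67.3 to 76.9) of the family's counts. Prl2c2 took 23.2% (18.5 to 28.4) and 26.6% (22.0 to 31.5). The share of Prl2c5 was 2.01% (0.742 to 4.33) and 1.14% (0.312 to 2.90). In each pair the intervals overlapped. With at most 10 family counts in each of the other libraries, the shares there could not be set: that of Prl2c3 in shScr replicate 2, for example, was 50% with an interval of 18.7 to 81.3. The counts themselves show that reads were divided among copies. Of 18 single-gene sums 6 were not whole, by up to 0.47 counts, whereas the family sum was within 0.02 of a whole number in 6 of 6 libraries. The intervals above take the division as given and do not include its error.

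Within each gene, 1 transcript row held most of the counts where the gene was high. For Prl2c3 this was NM_011118.2, with 206.37 and 230.69 estimated counts in shPkm2, or 92.4% and 91.2% of the gene. It held 2 and 4.48 counts in shScr and 0 and 5.6 in shPkm1. The predicted transcripts XM_006516578.3, with 8.07 and 11.08 counts in shPkm2, and XM_006516579.1, with 9.01 and 11.23, shared the rest. For Prl2c2 the row NM_031191.1 held 65.4 and 93 counts in shPkm2. The predicted transcript XM_017315421.1 held 3.13 counts in shPkm2 replicate 1 and 0 elsewhere, and XM_006516577.2 was at 0 in all 6 libraries. For Prl2c5 the leading row differed between the shPkm2 libraries: XM_011244261.1 led replicate 1 with 4.04 counts, and NM_001311129.1 led replicate 2 with 2.62. Of the 24 member values above 0, 17 were not whole to within 1e-09. By the same measure 29.2% of the member values above 0 were whole, against 16.9% of such values in the whole table.

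None of the other listed genes of the prolactin family reached a level that could be tested. Of 24 further family members listed, among them pituitary prolactin (Prl), growth hormone (Gh) and the placental lactogens Prl3d1, Prl3d2 and Prl3d3, 9 had rows and 0 passed the filter on low counts. The highest value of any of them was 1 count, for Prl in shScr replicate 2 and for Prl3d2 in shPkm2 replicate 1. Prl2c1, a relative on the same chromosome whose coding sequence matched Prl2c3 at 93.9% of positions, had no row and was not analysed here.

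Markers of trophoblast, the cells in which proliferin is best known, were at the edge of detection. Of 10 defining markers 5 had rows, and the summed level of these was 0.07 to 0.08 TPM in shScr, 0.07 to 0.16 in shPkm1 and 0.26 to 0.33 in shPkm2. Ascl2, a transcription factor of trophoblast precursors, held at most 1 count in any library, and Synb, a fusion protein of the syncytium, also held at most 1. In shPkm2 Syna held 4 and 2 counts and Eomes 1 and 8. Rows for Tpbpa, Gcm1, Hand1, Elf5 and Cdx2 were not present, and these genes were not analysed here. From the wider trophoblast list, 3 factors that many other tissues also use passed the filter: Gata2, Gata3 and Ets2. All 3 were higher in shPkm2 than in shScr, with a median log2 fold change of 1.01 against 0.01 over all genes, of which 33.9% were called higher. Gata3 held 98 and 122 counts in shScr, 70 and 98 in shPkm1 and 298 and 253 in shPkm2, with a log2 fold change of 0.99 against shScr (SE 0.172, edgeR adjusted p = 0.00019). Gata3 and Ets2 were also higher than in shPkm1, 2 of 3, where 25.7% of all genes were higher and 27.3% lower. That count was smaller without shPkm1 replicate 1 or without shPkm2 replicate 1. Against shScr, shPkm1 had 2 of the 3 higher and Gata3 lower, at -0.59, where 31.8% of all genes were higher and 31.4% lower. The Gata3 call was lost without shPkm1 replicate 1, with library totals, with DESeq2 and on the TPM scales. The Ets2 call was lost without shPkm1 replicate 2 (0.48). Endothelial markers summed to 0.41 TPM or less in every library. The macrophage markers Csf1r and Cd68 summed to 0.82 to 1.72 TPM in shScr, 3.10 to 4.11 in shPkm1 and 3.06 to 3.74 in shPkm2. Of these 2, Csf1r held 2 and 5 counts in shPkm2, the lowest of the groups. The part of other cell types in the proliferin levels was not tested.

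Genes of the mitogen response, the setting in which mitogen-regulated protein was named, were mostly higher in shPkm2. The list, like the others here, was chosen with earlier results of these data known, so its counts are a description. Of 22 listed genes, all tested, 18 were higher and 2 lower in shPkm2 than in shScr by edgeR's test, where 33.9% of all genes were higher and 34.2% lower. Their median log2 fold change was 0.84, against 0.01 over all genes. Against shPkm1, 14 were higher and 1 lower, with 25.7% and 27.3% of all genes, and a median of 0.67. For shPkm1 against shScr 10 were higher and 5 lower, with 31.8% and 31.4% of all genes, and a median of 0.21. The 10 and 5 became 7 and 3 without shPkm1 replicate 1, 8 and 7 without shScr replicate 2, 10 and 3 with library totals and 13 and 3 on the TPM scales. In shPkm2 against shScr the list's direction was the same with library totals as the only scaling, with 18 higher and 1 lower.

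Among regulators of growth, Hmga2, a chromatin protein of embryonic and dividing cells, held 95 and 138 counts in shScr, 211 and 188 in shPkm1 and 2710 and 2544 in shPkm2. Its log2 fold change in shPkm2 was 4.16 against shScr (SE 0.138, adjusted p = 3.23e-11). Ccnd1, the cyclin that drives entry into the cell cycle, held 321 and 406 counts in shScr, 1775 and 1851 in shPkm1 and 3792 and 3825 in shPkm2. It rose in both Pkm hairpin groups, by 2.12 (SE 0.106) in shPkm1 and 3.06 (SE 0.107) in shPkm2 on the log2 scale. Hmga1, the relative of Hmga2, went in opposite directions: 267 and 269 counts in shScr, 53 and 87 in shPkm1 and 1257 and 1163 in shPkm2. It fell by 2.14 in shPkm1 and rose by 1.84 in shPkm2, and the direct contrast of these groups was 3.98 (SE 0.163, adjusted p = 4.07e-10).

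Several genes of the list are known as targets or brakes of the ERK pathway, through which serum factors act. Etv4, a transcription factor induced by ERK, held 90 and 129 counts in shScr, 171 and 199 in shPkm1 and 856 and 822 in shPkm2, a log2 rise of 2.61 (SE 0.138) in shPkm2 against shScr. The immediate-early factor Egr2 rose by 2.27 (SE 0.146) in that contrast and Egr1 by 0.58 (SE 0.138). Plaur, the urokinase receptor, rose by 1.72 (SE 0.120). The phosphatase genes Dusp4 and Dusp6, which switch ERK off, rose by 1.30 and 1.19 in shPkm2 against shScr and fell by 0.87 and 0.41 in shPkm1. The Dusp6 call in shPkm1 was lost without shScr replicate 1 or without either shPkm1 library (adjusted p = 0.066 to 0.080), with DESeq2 and library totals, and the difference was -0.01 on the TPM scales. Dusp1, a phosphatase that also acts on JNK and p38, was the clearest exception: it held 600 and 865 counts in shScr, 320 and 317 in shPkm1 and 397 and 435 in shPkm2. It fell by 1.40 in shPkm1 and by 1.14 in shPkm2. The immediate-early gene Ier2 was the other gene called lower in shPkm2 against shScr, at -0.36 (adjusted p = 0.0323). That call was lost without shScr replicate 1 (-0.11, adjusted p = 0.40) or without any 1 of the shPkm1 or shPkm2 libraries, and the sign turned on the TPM scale (0.11).

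The AP-1 and glucocorticoid list holds AP-1 factors and their relatives, the steroid receptor genes Nr3c1 and Nr3c2, and genes of glucocorticoid response or metabolism. Of 25 listed genes 22 were tested. In shPkm2 against shScr 6 were higher and 8 lower, with a median log2 fold change of -0.15, where 68.0% of all genes were called. In shPkm2 against shPkm1 5 were higher and 7 lower, with a median of -0.12, where 53.0% of all genes were called. For shPkm1 against shScr 10 were higher and 8 lower, with a median of -0.04, where 63.1% of all genes were called. Nothing particular to the list is read from these counts. The sign of these medians depends on scaling: with library totals alone they were 0.17, 0.01 and 0.16, with 10 higher and 7 lower, 7 higher and 5 lower, and 10 higher and 5 lower.

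Among AP-1 subunits the clearest rise was in Fosl1, which encodes Fra-1. It held 334 and 343 counts in shScr, 575 and 584 in shPkm1 and 2141 and 2065 in shPkm2. Its log2 fold change was 0.57 (SE 0.106) in shPkm1 and 2.30 (SE 0.104, adjusted p = 5.37e-10) in shPkm2 against shScr, and 1.73 (SE 0.0992) between them. Jun held 2530 and 3204 counts in shScr, 2307 and 2915 in shPkm1 and 4584 and 4022 in shPkm2. Jun was higher in shPkm2 than in shPkm1 by 0.59 (SE 0.116, adjusted p = 0.000771), while its difference from shScr of 0.26 missed the threshold (adjusted p = 0.0646). That difference passed it without shScr replicate 2 (0.35, adjusted p = 0.00559) and with library totals (0.58). Its call lower in shPkm1 than in shScr, at -0.34, was lost without shPkm1 replicate 1 (adjusted p = 0.28) and with library totals, and the sign turned on the TPM scale (0.05). Junb, a subunit that can hold Jun back, went the other way, with 4492 and 4213 counts in shScr, 6667 and 8497 in shPkm1 and 2690 and 2633 in shPkm2. It rose by 0.59 in shPkm1 and fell by 1.05 in shPkm2 against shScr. Fos held 111 and 97 counts in shScr, 64 and 69 in shPkm1 and 74 and 61 in shPkm2, and was lower in both hairpin groups, by -0.85 (SE 0.216) and -0.96 (SE 0.216). The first of these calls was not made on log2(TPM + 0.1) (adjusted p = 0.073). Atf3, a stress-induced partner of Jun, fell by 1.10 and 1.57, and Atf2 rose by 0.80 and 0.98. Maf, a leucine zipper factor related to AP-1, held 267 and 386 counts in shScr, 220 and 231 in shPkm1 and 538 and 539 in shPkm2. It was higher in shPkm2 than in shPkm1 by 1.13 (SE 0.134, adjusted p = 1.11e-05). Its call higher than in shScr, at 0.39, was lost without shScr replicate 1 (0.23), without either shPkm2 library (adjusted p = 0.06 and 0.072) and with DESeq2, and its call lower in shPkm1, at -0.73, was not made on the TPM scales (adjusted p = 0.16).

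On the glucocorticoid side, the receptor gene Nr3c1 held 514 and 503 counts in shScr, 1405 and 1193 in shPkm1 and 1202 and 1115 in shPkm2. It rose by 1.15 (SE 0.123) in shPkm1 and 0.85 (SE 0.123) in shPkm2. The related receptor gene Nr3c2 held 60 and 46 counts in shScr, 8 and 4 in shPkm1 and 39 and 38 in shPkm2. The log2 difference of shPkm1 from shScr was -3.33 (SE 0.406), and -3.92 without shPkm1 replicate 1. Its call lower in shPkm2, at -0.80, was lost without shScr replicate 1 or without either shPkm2 library (adjusted p = 0.12 to 0.18). Hsd11b1, the enzyme that regenerates active glucocorticoid inside cells, held 138 and 190 counts in shScr, 403 and 383 in shPkm1 and 31 and 29 in shPkm2. It rose by 1.06 in shPkm1 and fell by 2.77 in shPkm2 against shScr. Known glucocorticoid targets were split. Fkbp5 rose by 0.93 and 1.01 in shPkm1 and shPkm2 and Sgk1 by 0.68 and 0.87, whereas Tsc22d3, which encodes GILZ, fell by 1.33 in shPkm2 and differed by -0.24 in shPkm1 (adjusted p = 0.0586, and 0.013 without shScr replicate 2). Per1, a clock gene, was called higher in shPkm1 than in shScr at the edge of the threshold, by 0.24 (adjusted p = 0.0472). That call was lost without any 1 library other than shScr replicate 1 (adjusted p = 0.071 to 0.18), with DESeq2 or its size factors, without the filter, with only the 2 groups and with the replicate block (adjusted p = 0.056). In shPkm2 Per1 differed by 0.03 (adjusted p = 0.812), and it was called higher with library totals (0.35) and on the TPM scales (0.45 and 0.48).

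The genes through which proliferin is bound, and the hormone receptors of the wider family, were described next. Of 13 listed genes 12 were tested, with 4 higher and 6 lower in shPkm2 against shScr and a median log2 fold change of -0.38, where 33.9% of all genes were higher and 34.2% lower. Against shPkm1 4 were higher and 4 lower, with a median of -0.02 and with 25.7% and 27.3% of all genes. In shPkm1 against shScr 4 were higher and 5 lower, with a median of -0.06 and with 31.8% and 31.4% of all genes. Nothing particular to this list is read from these counts either. With library totals these medians were -0.06, 0.11 and 0.13. The 8 calls against shPkm1 became 5 without shPkm2 replicate 1. Igf2r, the mannose 6-phosphate receptor that binds proliferin, held 2192 and 2895 counts in shScr, 2495 and 2775 in shPkm1 and 1680 and 1541 in shPkm2. It was lower in shPkm2 than in both other groups, by -0.99 (SE 0.107, adjusted p = 2.78e-06) and -0.84 (SE 0.107). For shPkm1 against shScr it differed by -0.15 (adjusted p = 0.237), which passed the threshold without shScr replicate 1 (-0.26, adjusted p = 0.027). Igf2, another ligand of that receptor and a growth factor of muscle, held 22570 and 11688 counts in shScr, 3846 and 3533 in shPkm1 and 498 and 509 in shPkm2. It fell by 2.45 (SE 0.255) in shPkm1 and fell by 5.45 (SE 0.297) in shPkm2. Without shScr replicate 1, the library with the most Igf2 counts, these differences were -1.78 and -4.79. M6pr, the cation-dependent mannose 6-phosphate receptor, was called lower in shPkm1, at -0.38 against shScr. That call was lost without shPkm1 replicate 2 (adjusted p = 0.063) and with library totals, and the sign turned on the TPM scale (0.01).

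Enzymes that build the mannose 6-phosphate tag moved in different directions. Gnptab, the catalytic subunit of the phosphotransferase, held 269 and 320 counts in shScr, 423 and 455 in shPkm1 and 942 and 871 in shPkm2, a rise of 1.29 (SE 0.107) in shPkm2 against shScr. Gnptg, its regulatory subunit, was lower in that contrast, by -0.92 (SE 0.130). Nagpa, the uncovering enzyme, differed by 0.14 (adjusted p = 0.434), and it was called higher without shScr replicate 2 (0.42), with library totals (0.46) and on the TPM scales (0.57 and 0.61). The prolactin receptor gene Prlr held 0 counts in the 4 shScr and shPkm1 libraries and 1 in each shPkm2 library. Ghr, the growth hormone receptor, held 777 and 817 counts in shScr, 1608 and 1526 in shPkm1 and 659 and 639 in shPkm2. It rose by 0.77 in shPkm1 and fell by 0.63 in shPkm2. Downstream of these receptors, Jak2 rose by 1.66 and 1.41 in shPkm1 and shPkm2, while Stat5a fell by 1.29 and 0.79 and Stat5b by 1.11 and 0.99. The feedback inhibitor Socs2 rose by 0.75 and 0.59. Cish, a Stat5 target with at most 36 counts, rose by 1.48 in shPkm2 against shScr (SE 0.375, adjusted p = 0.0034), a call that DESeq2 did not make (adjusted p = 0.052).

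**Figure D2:**
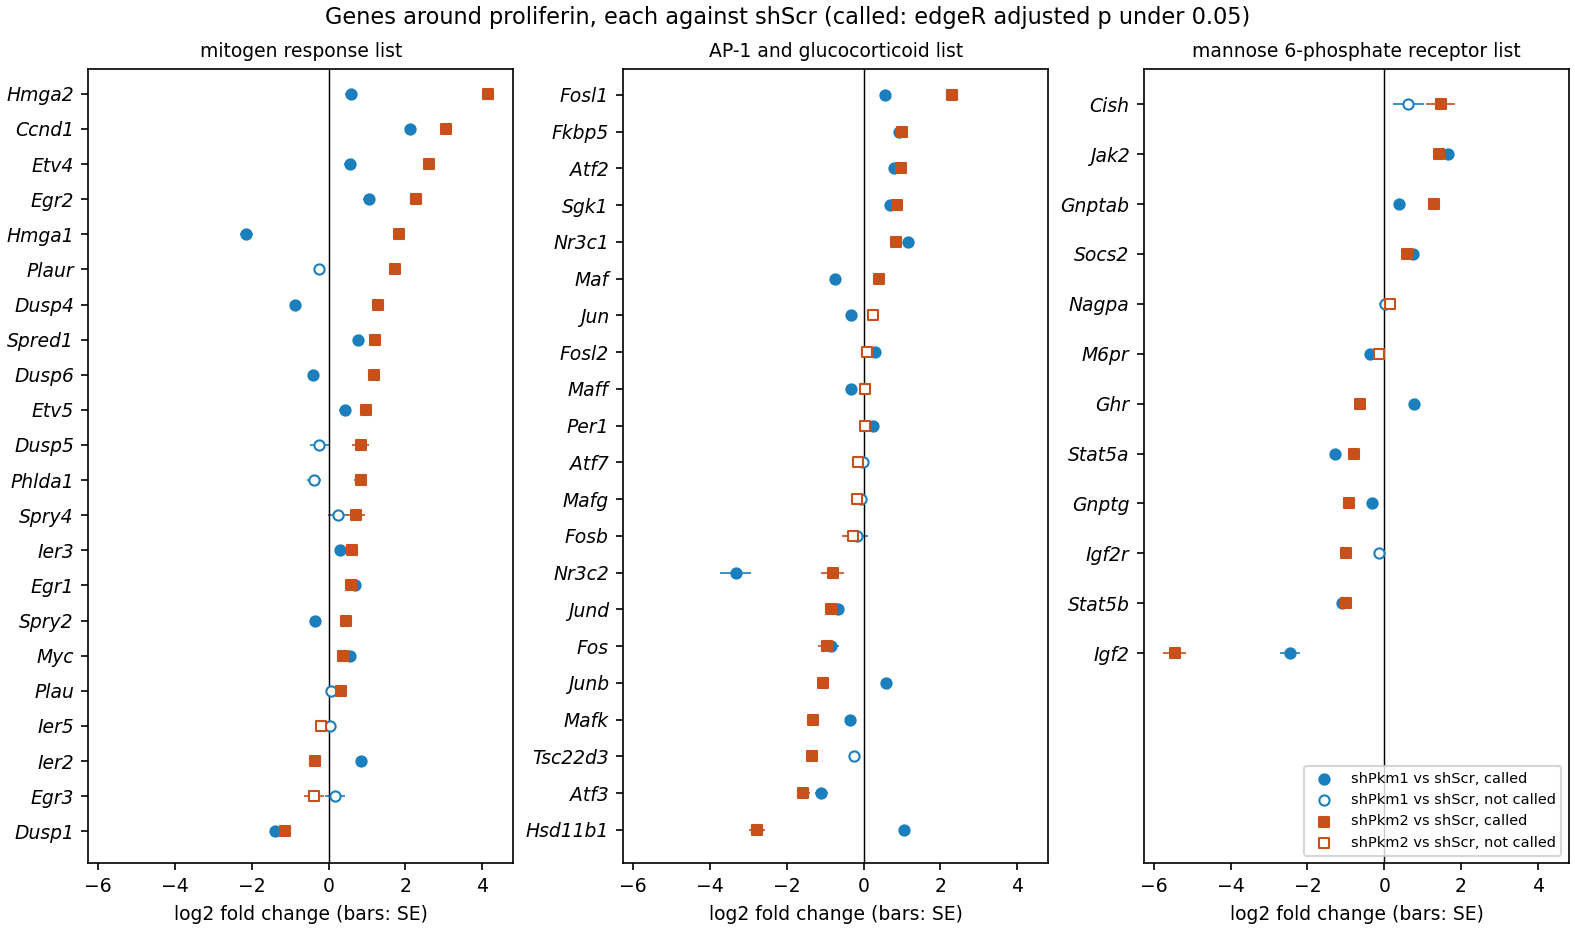
Log2 fold change (horizontal axis, bars are SE) of the tested genes of 3 lists around proliferin that averaged 10 counts or more, for shPkm1 against shScr (circles) and shPkm2 against shScr (squares). Filled symbols passed edgeR's test at an adjusted p under 0.05: the mitogen response panel holds 18 filled squares to the right of 0 and 2 to the left, against 6 and 8 in the AP-1 and glucocorticoid panel and 4 and 6 in the mannose 6-phosphate receptor panel.

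Myogenic genes were mostly lower in shPkm2. Of 14 tested markers 13 were lower and 1 higher in shPkm2 than in each other group, with median log2 fold changes of -6.08 against shScr and -4.70 against shPkm1. Of all genes, 34.2% were lower and 33.9% higher in the first comparison and 27.3% lower and 25.7% higher in the second. In shPkm1 against shScr 13 were lower and 0 higher, with a median of -1.43, where 31.4% of all genes were lower and 31.8% higher. Myog, a factor that starts differentiation, held 36850 and 35191 counts in shScr, 20597 and 22983 in shPkm1 and 1045 and 1192 in shPkm2, with log2 fold changes against shScr of -0.94 and -5.35. Among the tested markers the 3 largest falls in shPkm2 against shScr were in structural and metabolic genes of muscle fibres, Ckm, Actc1 and Acta1. Ckm, the muscle creatine kinase, held 37770 and 23731 counts in shScr, 4358 and 5969 in shPkm1 and 152 and 123 in shPkm2, with log2 fold changes against shScr of -2.81 (SE 0.226) and -8.16 (SE 0.301). Acta1 and Actc1, the skeletal and cardiac alpha-actins, stood at -7.80 and -7.86 in shPkm2, the second at -7.05 without shScr replicate 1. Myh3, the embryonic myosin heavy chain, stood at -2.30 in shPkm1. Mymk, a membrane protein of myoblast fusion, was lower in shPkm2 than in shPkm1 by -5.95. Mef2c, a factor that acts with Myog, held 367 and 97 counts in shScr, 57 and 58 in shPkm1 and 5 and 4 in shPkm2, and its difference of shPkm1 from shScr of -2.25 (SE 0.477) was -0.88 without shScr replicate 1 and -2.96 without shScr replicate 2. Myod1 held 6455 and 6647 counts in shScr, 3906 and 4228 in shPkm1 and 1661 and 1881 in shPkm2. The marker that rose in shPkm2 was Myf5, the early myoblast factor, with 287 and 331, 431 and 416, and 1326 and 1269 counts in the same order (log2 rise against shScr of 1.74, SE 0.105). On the TPM scale, Myog was at 70.4 ± 4.45 in shPkm2 and the proliferin family at 37.6, whereas in shScr they were at 2089 ± 52.7 and 0.65. In shPkm1 Myf5 differed from shScr by 0.25 (adjusted p = 0.0588), and it was called higher with a minimum mean of 50 counts (0.26), with library totals (0.45) and on the TPM scales (0.60 and 0.64). The part of the differentiation state in the proliferin level was not tested.

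No tested neighbour of the proliferin cluster differed upward in shPkm2 by as much as Prl2c3 or Prl2c2. The proliferin genes were picked with their high counts in shPkm2 known, so nothing about the locus is read from this. The 10 RefSeq entries between Prl2c3 and Prl2c5, predicted pseudogenes and long noncoding RNAs, had no row and were not analysed here. Of 47 annotated genes that start within 1 Mb of a member, 15 are protein-coding and 14 genes were tested. In shPkm2 against shScr 8 were higher and 1 lower, with a median log2 fold change of 0.70, where 33.9% of all genes were higher and 34.2% lower. In shPkm1 against shScr 9 were higher and 1 lower, with a median of 0.87, where 31.8% of all genes were higher and 31.4% lower. In shPkm2 against shPkm1, where proliferin differed by 5.38, 1 was higher and 3 were lower, with a median of -0.07, where 25.7% of all genes were higher and 27.3% lower. Over all genes the median was within 0.01 of 0 in each comparison.

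The neighbour called higher in shPkm2 than in shPkm1 was Ero1b, an oxidase of protein folding, with 25 and 48 counts in shScr, 49 and 55 in shPkm1 and 89 and 95 in shPkm2. That difference of 0.69 (SE 0.252, adjusted p = 0.0336) was lost when any 1 of the shPkm1 or shPkm2 libraries was left out and with DESeq2 (adjusted p = 0.15). Nid1, a basement membrane protein, held 1104 and 1330 counts in shScr, 3462 and 3608 in shPkm1 and 3923 and 3586 in shPkm2. It rose by 1.34 (SE 0.0990) in shPkm1 and 1.29 (SE 0.0989) in shPkm2, and Gpr137b, Lyst and Tbce rose in both groups too, by 1.11 to 1.24 and by 1.14 to 1.30. Actn2, the muscle alpha-actinin, fell from 3444 and 829 counts in shScr to 117 and 134 in shPkm1 and 12 and 16 in shPkm2. Gm2399, a predicted gene, held 2 and 1 counts in shScr, 10 and 15 in shPkm1 and 10 and 8 in shPkm2, and its call higher in shPkm2 than in shScr, at 2.17 and 2.78 without shScr replicate 1, was lost without shScr replicate 2 or without shPkm2 replicate 1 (adjusted p = 0.11 and 0.081) and with DESeq2 (adjusted p = 0.13). Arid4b, a chromatin regulator, rose by 1.31 and 1.04 in shPkm1 and shPkm2, and Ggps1, a lipid synthesis enzyme, by 0.62 and 0.38. The second Ggps1 call was lost without either shPkm2 library (adjusted p = 0.13 and 0.059). In shPkm2 against shScr Lgals8 differed by 0.28 (adjusted p = 0.0517), B3galnt2 by 0.09, Heatr1 by -0.07 and Mtr by -0.21, none of which passed the test. Lgals8 passed it without shScr replicate 2 (0.46) and with library totals (0.60), and Heatr1 had the other sign with library totals (0.26). Gng4, a G protein subunit, held 0 and 2 counts in shScr, 25 and 27 in shPkm1 and 1 and 0 in shPkm2. Its fitted difference of shPkm2 from shPkm1, -5.48, was -7.66 and -4.66 without shPkm2 replicate 1 and 2 in turn, so no size is read from it.

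**Figure D3:**
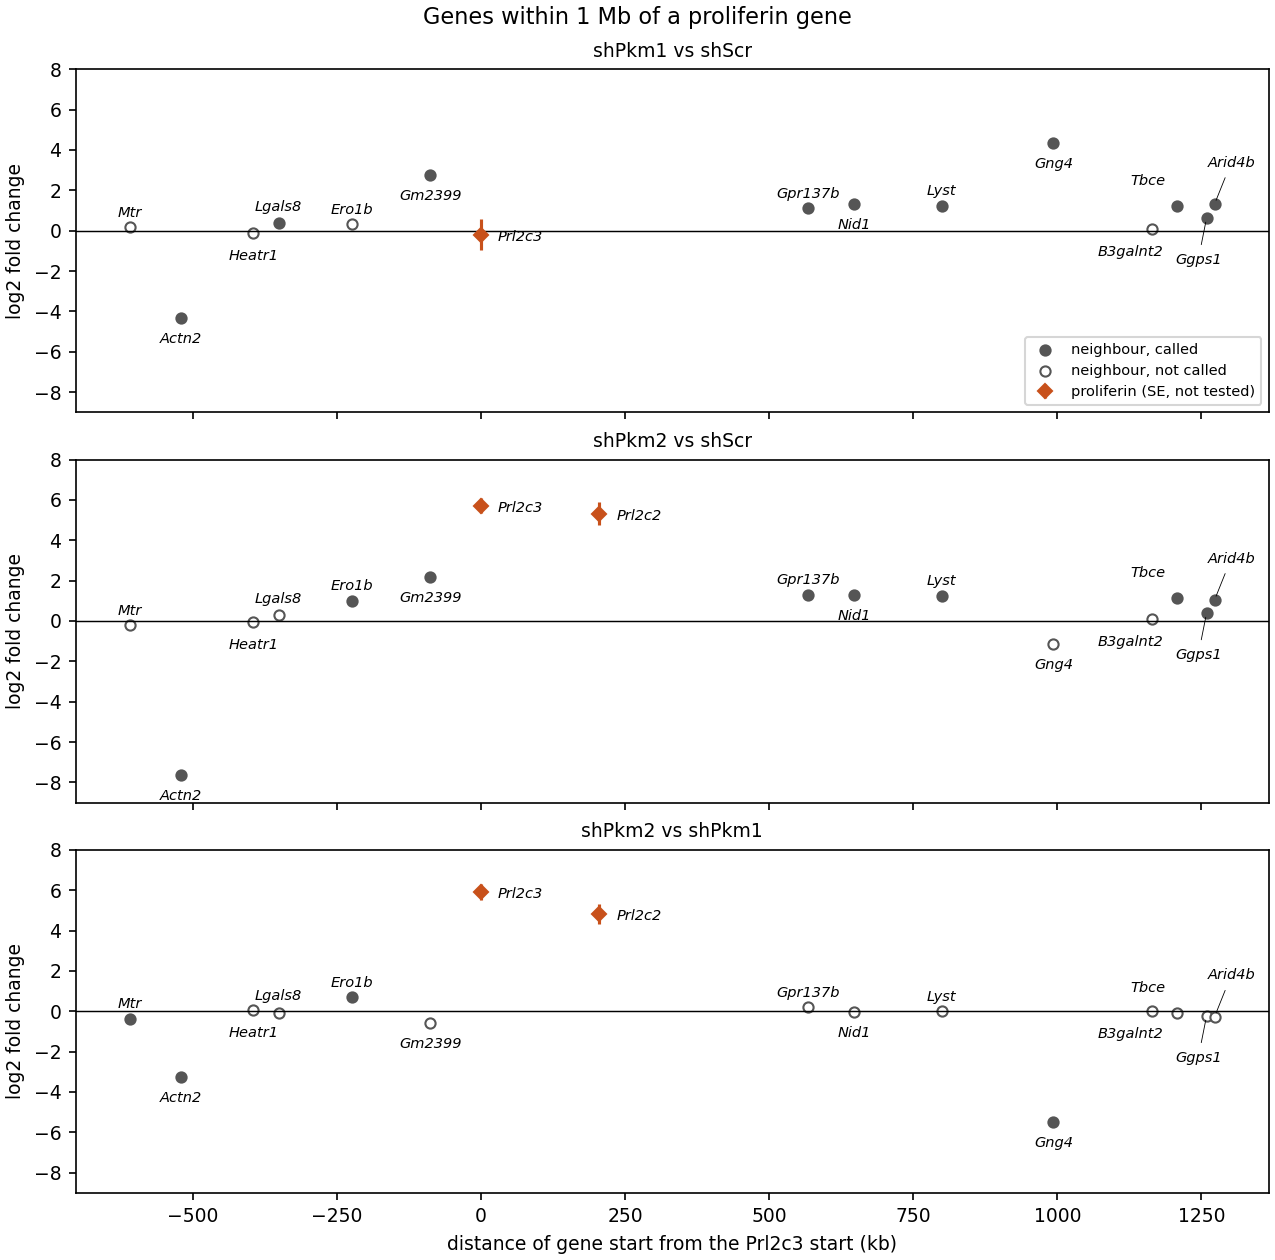
Log2 fold change (vertical axis) of the 14 tested genes within 1 Mb of a proliferin gene, by the distance in kb of their lower-coordinate end from that of Prl2c3 (horizontal axis), with 1 panel per comparison. Circles are neighbours, filled where edgeR's adjusted p is under 0.05, and diamonds with SE bars are Prl2c3 and Prl2c2 (Prl2c2 is left out where both groups are at the floor): in the lower panel the diamonds lie at 5.91 and 4.82 and the neighbours other than Gng4 between -3.28 and 0.69.

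The profile of the family sum over the 6 libraries was compared with that of 10715 named genes whose counts averaged 50 or more over the libraries. The measure was the root mean square difference of log2 CPM (counts scaled to library size), each gene centred on its own mean, whose median over these genes was 2.53. Genes were ranked by this likeness, so their levels are a description. The closest was Car8, an inactive relative of the carbonic anhydrases, at 0.633. It held 9 and 8 counts in shScr, 8 and 9 in shPkm1 and 308 and 346 in shPkm2. Ngfr, the low-affinity neurotrophin receptor, followed at 0.670 with 5 and 9, 1 and 6, and 183 and 158 counts. Dlx3, a homeobox factor of placenta and skin, was at 0.764 with 37 and 60, 43 and 41, and 881 and 814 counts. Hmga2 was at 0.816, and Csf2rb, the shared receptor chain for several cytokines, at 0.937 with 4 and 34, 13 and 16, and 191 and 180 counts. In each of these 5 genes both shPkm2 libraries lay above the other 4. In unscaled counts the shScr and shPkm1 ranges overlapped in Car8, Ngfr, Dlx3 and Csf2rb and did not in Hmga2. Scaled to library size, the ranges of Ngfr and Dlx3 did not overlap either, with shPkm1 below shScr. Per transcript length, the proliferin family at 37.6 TPM in shPkm2 lay between Hmga2 at 58.4 ± 4.35 TPM and Dlx3 at 29.7 ± 2.49 TPM (SD, n = 2 each), and above Car8 at 5.12 ± 0.283.

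**Figure D4:**
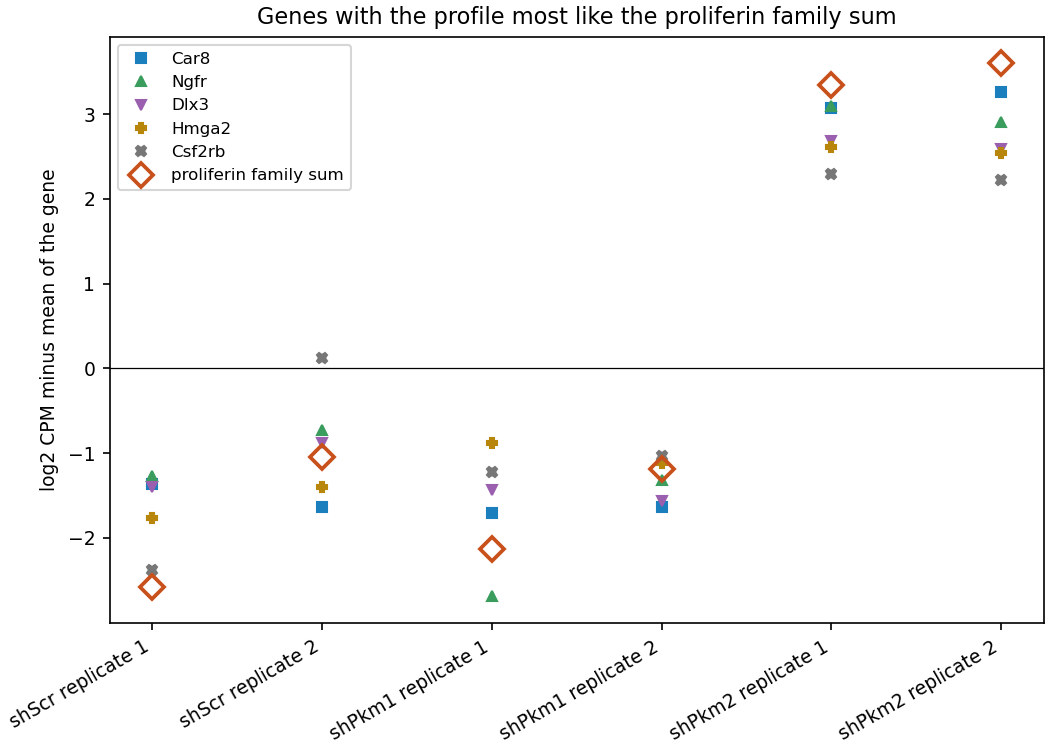
Log2 CPM minus the gene's own mean over the 6 libraries (vertical axis) in each library (horizontal axis) for the proliferin family sum (open diamonds) and the 5 genes of most similar profile. All 6 profiles lie above 0 in both shPkm2 libraries, and in shScr replicate 2 Csf2rb is the gene that does not lie below 0.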

How the data were processed

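RNA-seq values of 6 C2C12 libraries were used, in 3 groups of 2 taken from the sample titles. The deposited estimated counts, FPKM and TPM per RefSeq transcript were made by the authors. The submitters' processing notes name HISAT, StringTie, Bowtie, RSEM, DESeq2 and the build mm10 with no role or order. Deposited FPKM and the authors' 9 mean columns were not used. Estimated counts were summed per NCBI gene (17445 of 17558 matched a symbol) and rounded. The family sum was formed before rounding and fitted as 1 row in place of its members.

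Genes were tested with edgeR 4.0.16 in R 4.3.3: filterByExpr (minimum count 10, minimum total 15), TMM scaling, the quasi-likelihood test on all 6 libraries, two-sided, with Benjamini-Hochberg adjustment over 12643 genes and a threshold of 0.05. Fold changes are log2. Ratios of scaled counts carry exact 95% counting intervals. Deposited TPM were summed per gene. On simulated counts for shPkm2 against shScr, 82 of 92 genes changed 2-fold and 9 of 11920 unchanged genes were called. The simulation gave every gene the same spread and took all levels from shScr. It changed few genes, whereas most were called in these libraries, so its rates need not hold here. Alternatives were DESeq2 size factors, library totals, no filter, a mean of at least 50 counts, only the 2 groups compared, the replicate block, DESeq2 1.42.0, limma 3.58.1 on log2(TPM + 1) and log2(TPM + 0.1), and leaving out each library.

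Members and lists were chosen with earlier results of these data known. The text names the members, fixed genes of the pathway, up to 3 rises and 3 falls per list and comparison among called genes averaging 20 counts or more, the 5 most similar genes and the tested neighbours within 1 Mb. Sgk1, Per1, Nagpa, Gnptg, Egr1, Dusp6, Plaur and the marker genes given with their counts were added for their roles after their values were seen. Other listed genes enter the text through the counts and medians of their lists. Coordinates and promoters come from RefSeq (GRCm38.p6) and coding sequences from GENCODE M21, the same assembly as mm10.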

Additional observations from a re-analysis of the deposited data

How the results depend on the processing

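The proliferin family sum, Prl2c3 and Prl2c2 stayed higher in shPkm2 than in both other groups under every alternative run. On log2(TPM + 1), which by construction shrinks low values, the log2 difference of the family was 4.60 against shScr and 4.40 against shPkm1, that of Prl2c2 3.26 and 3.02, and that of Prl2c3 4.34 and 4.36. On log2(TPM + 0.1) Prl2c2 against shPkm1 was 4.50. Leaving out 1 library at a time gave ranges for shPkm1 against shScr, shPkm2 against shScr and shPkm2 against shPkm1 of -0.72 to 1.47, 4.75 to 6.85 and 4.90 to 6.13 for the family, -0.37 to 4.39, 4.45 to 9.22 and 4.57 to 5.09 for Prl2c2, and -1.84 to 0.54, 5.29 to 6.41 and 5.18 to 7.56 for Prl2c3. The first range of Prl2c2 compares groups at the floor of 3 counts, so no fold is read from it. Calls in shPkm2 against shPkm1 ranged from 5 to 9 in the mannose 6-phosphate receptor list and from 1 to 2 in the trophoblast list.

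Of 2999 recomputed values of named genes, 14 had the other sign with an adjusted p under 0.05 in the reported or the recomputed fit. Sign turns with neither value called were not counted. Csf2rb in shPkm1 was 1.54 without shScr replicate 2 and -1.35 without shScr replicate 1. In shPkm2 against shScr Heatr1 was 0.26 with library totals and 0.35 and 0.39 on the TPM scales, Ier2 was 0.11 on both, and M6pr was 0.32 and 0.33. In shPkm1 Jun was 0.050 and 0.051 and M6pr 0.012 on both, and Gnptg was 0.064 and 0.065. A further 105 lost and 53 gained a call. The cause was not tested.

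With the replicate number as a block, 7922, 8566 and 6682 genes were called in the 3 comparisons, and the family values were 0.03, 5.43 and 5.40. Deviations of same-numbered libraries correlated at -0.03 to 0.05, so no shift across genes shared by number was seen. This cannot tell whether same-numbered libraries were prepared together, which the labels do not say. Depth limits Prl2c5 and all proliferin values in shScr and shPkm1, with at most 10 counts per library for the family.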
